A study of Homo sapiens with 12 samples.

Results

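Aminoacyl-tRNA synthetases are the enzymes that join each amino acid to its transfer RNA. The members described here are 36 synthetase genes, taken by symbol from the 34886 gene symbols of the mRNA table: 20 that serve the cytosol (AARS to YARS) and 16 that serve the mitochondrion, whose symbols end in 2. The cells were H446 (NCI-H446), a long-established line of human small cell lung cancer, and 6 mRNA libraries were made from them. In 3 of these the cells had been treated for 8 h with CAPE (caffeic acid phenethyl ester, a compound of propolis) at 40 µM. In the other 3 they had received an equal volume of its solvent dimethyl sulfoxide (DMSO). The labels name no genetic change in either group and do not say whether the replicates were separate cultures, so p-values measure only the spread between these libraries, which may be technical.

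Synthetases come in a cytosolic and a mitochondrial set, both encoded in the nucleus, and the mitochondrial enzymes are imported to charge the tRNAs used by the mitochondrial ribosome. GARS and KARS are counted here with the cytosolic set although each gene also supplies the mitochondrial enzyme. When amino acids run short or the eukaryotic initiation factor eIF2 is phosphorylated, the transcription factor ATF4 is made and binds C/EBP-ATF response elements, composite sites in the promoters of amino acid synthesis, transport and charging genes. The cytosolic set was divided, from general knowledge, into 13 genes taken as targets of this stress response and 7 others. This division was made with earlier results of these data known. The stress-response list holds AARS, CARS, EPRS, GARS, IARS, LARS, MARS, NARS, SARS, TARS, VARS, WARS and YARS. Not on it are DARS, FARSA, FARSB, HARS, KARS, QARS and RARS.

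The response element was looked for by its letters in the promoters, and is set against the direction of change further on. Windows from 250 bases before to 50 bases after the annotated start of transcription came from RefSeq (GRCh38.p14), which gave a window for 30 of the 36 members. DARS, LARS, VARS, YARS, AARS2 and VARS2 had none. The letters TGATGNAA, on either strand, were present in 8 of these 30 members (26.7%), against 1217 of 27305 genes with a window (4.46%). The match lay in 7 of 16 cytosolic members (43.8%) and in 1 of 14 mitochondrial members (7.14%). The 8 stretches are shown because they carry this comparison, each read 5′ to 3′ along its gene with the matched letters in capitals, most of them as the reverse complement TTNCATCA.
GARS, chr7:30594834-30594863, plus strand: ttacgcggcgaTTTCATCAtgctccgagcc
CARS, chr11:3057407-3057436, minus strand: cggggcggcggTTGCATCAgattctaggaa
AARS, chr16:70289660-70289719, minus strand: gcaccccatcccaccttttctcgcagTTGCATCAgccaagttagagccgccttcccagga
MARS, chr12:57488053-57488082, plus strand: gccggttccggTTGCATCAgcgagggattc
TARS, chr5:33440956-33440985, plus strand: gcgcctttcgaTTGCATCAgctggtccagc
NARS, chr18:57621804-57621833, minus strand: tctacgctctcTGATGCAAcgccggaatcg
IARS, chr9:92293692-92293721, minus strand: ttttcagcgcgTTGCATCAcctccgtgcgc
YARS2, chr12:32756061-32756120, minus strand: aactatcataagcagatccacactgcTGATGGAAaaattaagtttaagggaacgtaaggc

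In 6 of the 7 cytosolic genes the matched letters were TTGCATCA or their complement TGATGCAA. GARS had TTTCATCA. In CARS, MARS, TARS, NARS and IARS the match began between 13 bases before and 14 bases after the start of transcription, in GARS 33 bases and in AARS 187 bases before it. The full cyclic AMP response element TGACGTCA, a palindrome that shares no complete match with the first motif, was in 0 of the 30 members and in 614 of all genes with a window (2.25%). A match describes the letters only, and binding of ATF4 was not measured.

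The 6 libraries held 17569997 to 20917508 estimated counts, the most in DMSO 3, and the members took 112277 to 137142 of them per library. Counts of single members ran from 17, for HARS2 in DMSO 3, to 24066, for TARS. DMSO 3 stood apart from the other 5 libraries: its log2 CPM correlated at 0.896 to 0.920 with theirs (Pearson's r across genes), while the other pairs reached 0.975 to 0.993. CPM are counts relative to library sizes scaled with TMM. TPM, deposited beside the counts, divide by transcript length and are scaled to a common total in each library, without TMM. DMSO 3 departed most at short and at long transcripts. Its median log2 difference from DMSO 1 and DMSO 2 was 0.94 in the shortest decile of genes and -1.02 in the longest. The changes of the members are therefore given with and without it. The 6 neuroendocrine markers examined, of the kind by which small cell lung cancer is usually recognised (NEUROD1, CHGA, SYP, NCAM1, INSM1 and DDC) were all between 0 and 0.547 TPM, whereas the 4 epithelial markers summed to 1149 to 2591 TPM, nearly all of it KRT8 (711 to 1493 TPM) and KRT18 (403 to 1058 TPM), with EPCAM at 1.16 to 2.96 TPM. Markers of fibroblasts summed to 13.0 to 55.7 TPM, and those of leukocytes and endothelium to at most 2.37 and 3.99 TPM.

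In CPM, most members were higher in DMSO 3 than in the other DMSO libraries. In that library, 29 of the 36 exceeded the mean of DMSO 1 and DMSO 2. The median log2 CPM difference was 0.70, or 0.80 for the cytosolic and 0.44 for the mitochondrial set. In TPM the sums went the other way. CPM and TPM scale whole libraries differently, with a TMM factor of 0.699 for DMSO 3 and of 1.07 to 1.09 elsewhere. How much of the reversal comes from this scaling was not tested. The cytosolic sum was 2687 TPM in DMSO 3, against 3821 and 3788 TPM in DMSO 1 and DMSO 2. The mitochondrial sum was 385 TPM, against 535 and 507 TPM. In CPM, FARSA departed most upward (1.57) and HARS2 most downward (-2.07). Across the 36 members the departure correlated with relative transcript length (Pearson's r = -0.23, Spearman's rho = -0.44, genes sharing these 3 libraries and not independent), compared with -0.40 and -0.46 over 13595 genes. Fits without this library, with library quality weights and with a length trend removed are given with the changes below or in the closing section.

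**Figure D1:**
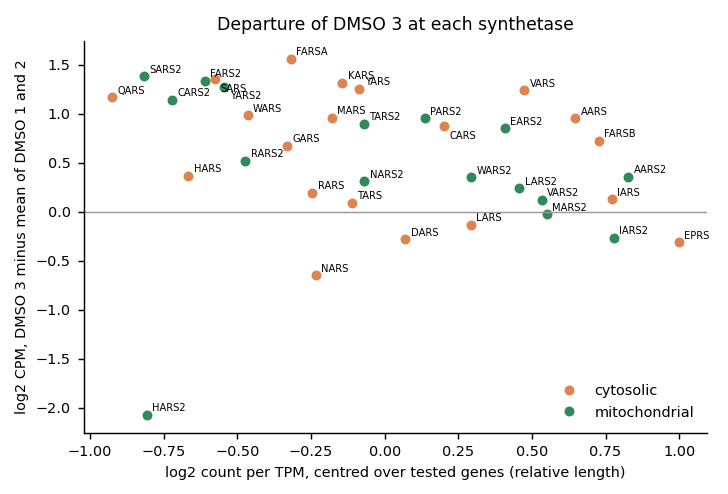
Departure of DMSO 3 from the mean of DMSO 1 and DMSO 2 (vertical axis, difference of log2 CPM) at each of the 36 members, against relative transcript length (horizontal axis, log2 of count per TPM, centred over the tested genes). Orange points are cytosolic and green points mitochondrial members; 29 of 36 lie above 0, FARSA is highest at 1.57 and HARS2 lowest at -2.07.

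With all 6 libraries, no synthetase passed edgeR's quasi-likelihood test at an adjusted p under 0.05, whereas 1.49% of 13595 genes were called higher and 0.456% lower with CAPE. An unadjusted p under 0.05, which 16.1% of tested genes had, was reached by 11 members: CARS, EPRS, GARS, RARS and VARS of the cytosolic set and EARS2, FARS2, MARS2, NARS2, WARS2 and YARS2 of the mitochondrial set. The DESeq2 Wald test on the same libraries called GARS higher and RARS, MARS2 and WARS2 lower, with 3.73% of genes higher and 2.34% lower. Limma on log2(TPM + 1) called AARS, CARS and GARS higher, with 0.824% of genes higher and 0.169% lower. With a length trend removed from the counts, edgeR called GARS higher and MARS2 lower (adjusted p = 0.0226 and 0.0412), with 2.06% of genes higher and 0.942% lower. Without DMSO 3, 26 of the 36 members were called by edgeR. In that fit 11 of 20 cytosolic synthetases rose (55.0%) and 7 fell (35.0%), and among the mitochondrial ones 1 of 16 rose (6.25%) and 7 fell (43.8%). In the same fit 20.4% of 13919 genes were higher and 20.8% lower. In bulk RNA, fewer cells of a type and less RNA per cell cannot be told apart.

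The cytosolic set split by the stress-response list. Of the 13 genes on that list, 11 rose without DMSO 3, VARS fell, and LARS was not called. Of the other 7, none rose, 6 fell, and HARS was not called. The median log2 fold change was 0.35 for the 13 and -0.21 for the 7 without DMSO 3, and 0.27 and -0.51 with all 6 libraries. Over all tested genes the median was 0.003 and -0.01 in these fits. The list was drawn up with earlier results of these data known, so the split is a description.

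**Figure D2:**
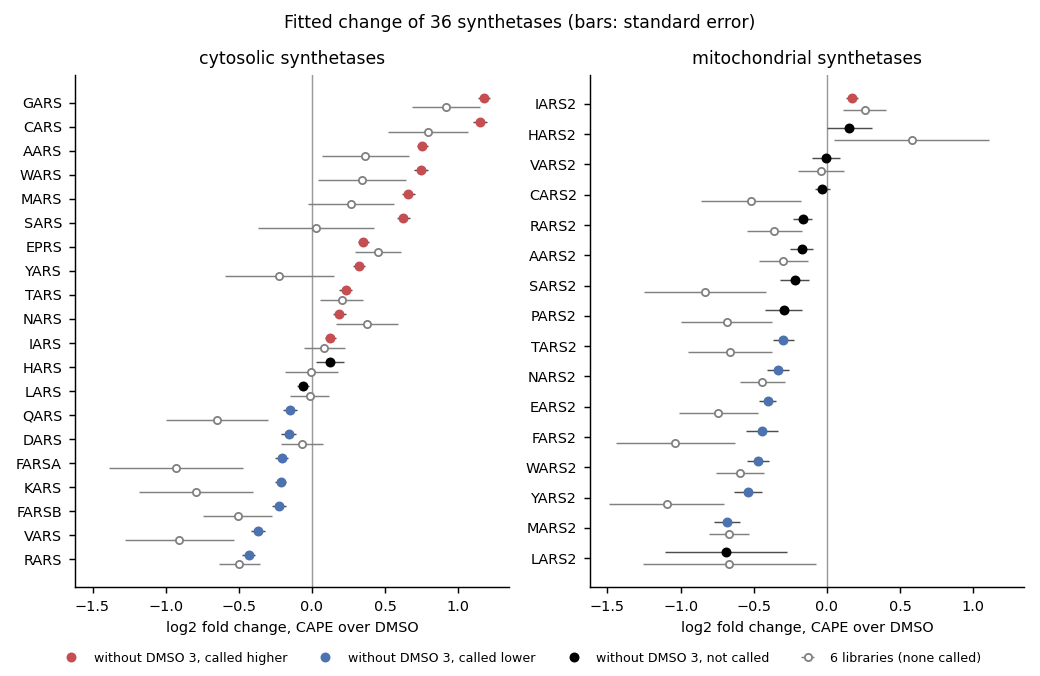
Fitted log2 fold change of CAPE over DMSO (horizontal axis) for the 20 cytosolic synthetases (left) and the 16 mitochondrial ones (right), with bars of 1 standard error. Grey open points are the fit of 6 libraries and filled points the fit without DMSO 3, red where called higher, blue where called lower and black where not called; the cytosolic genes spread from -0.43 to 1.18 without DMSO 3, while 14 of 16 mitochondrial genes lie below 0.

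GARS and CARS rose most. GARS, the glycyl-tRNA synthetase (chromosome 7, 30594735 to 30634033, GRCh38), was at 285, 278 and 450 CPM in DMSO 1 to 3 and at 630, 644 and 639 CPM in CAPE 1 to 3. Every CAPE library exceeded every DMSO library, and DMSO 3 lay nearest to CAPE. Without DMSO 3 GARS rose by 1.18 in log2 units (SE 0.04, edgeR adjusted p = 1.13e-11), which is 2.26-fold. With 6 libraries its log2 fold change was 0.92 (SE 0.23, edgeR adjusted p = 0.141). CARS, the cysteinyl-tRNA synthetase (chromosome 11, 3000929 to 3057423), was at 79.8, 76.7 and 144 CPM in DMSO and at 169, 177 and 175 CPM in CAPE. The groups again did not overlap. CARS rose 2.21-fold without DMSO 3 (log2 fold change 1.15, SE 0.05, edgeR adjusted p = 1.38e-10), and gave 0.80 with 6 libraries (SE 0.27, adjusted p = 0.249).

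AARS, WARS, MARS and SARS charge alanine, tryptophan, methionine and serine, and all 4 rose by 1.54-fold to 1.69-fold in the fit that left out DMSO 3. AARS was at 288, 282 and 554 CPM in DMSO and at 480, 477 and 491 CPM in CAPE. WARS, also known as a gene induced by interferon gamma, was at 124, 117 and 239 CPM and then at 204, 200 and 205 CPM. In both, CAPE lay between DMSO 3 and the other DMSO libraries. MARS was at 187, 173 and 350 CPM in DMSO and at 291, 276 and 287 CPM in CAPE. SARS was at 143, 146 and 369 CPM in DMSO and at 224, 219 and 227 CPM in CAPE. For all 4 the single DMSO 3 value exceeded every CAPE value, and the other DMSO values lay below every CAPE value. Their log2 fold changes without DMSO 3 were 0.75 for AARS, 0.75 for WARS, 0.66 for MARS and 0.63 for SARS, with edgeR adjusted p from 1.18e-09 to 3.84e-08. With all 6 libraries they were 0.36, 0.34, 0.27 and 0.03, and none passed.

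In TPM, every CAPE library was above every DMSO library for these genes, as for 25.8% of all tested genes. The median log2 fold change of all tested genes on TPM was 0.31. GARS was at 237, 222 and 189 TPM in DMSO and at 617, 667 and 658 TPM in CAPE, with DMSO 3 the lowest library here rather than the highest of its group. AARS was at 137, 142 and 124 TPM and then at 235, 233 and 238 TPM. CARS was at 53.3, 50.1 and 42.9 TPM and then at 110, 118 and 117 TPM. DMSO 3 held the lowest TPM of each of these 3 genes and the highest CPM of each among the DMSO libraries.

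**Figure D3:**
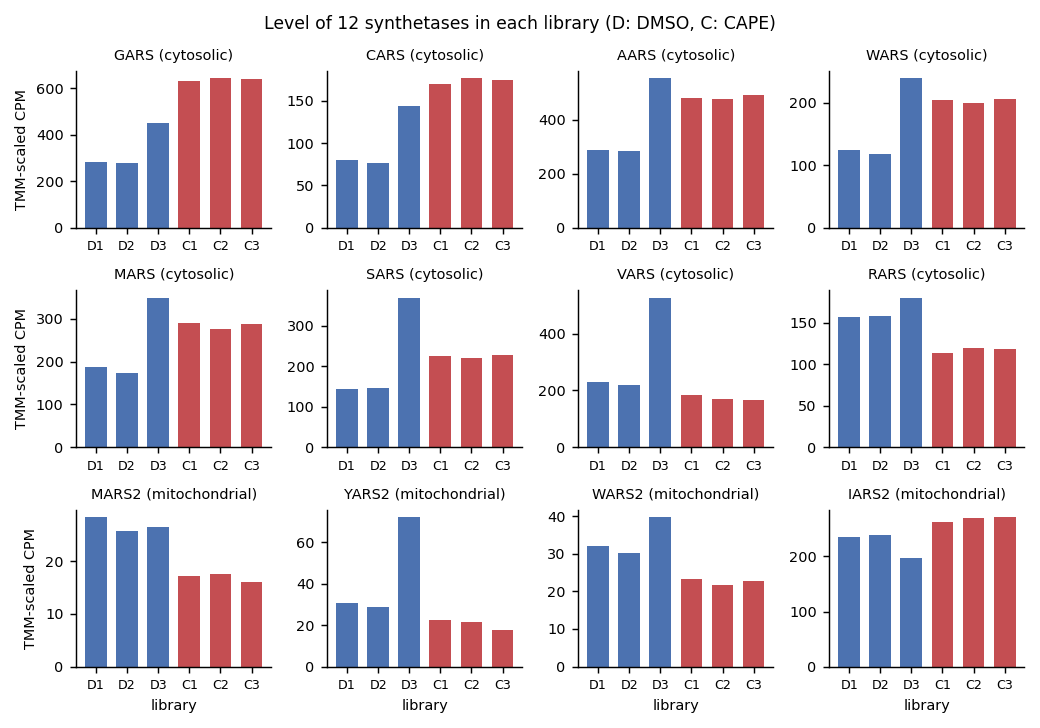
CPM scaled with TMM (vertical axes, from 0) of 12 synthetases in each library (horizontal axes, D1 to D3 for DMSO in blue and C1 to C3 for CAPE in red), 1 bar a library. In AARS, WARS, MARS, SARS, VARS, RARS, YARS2 and WARS2 bar D3 is the tallest of the 6, and in GARS and CARS all 3 CAPE bars stand above all 3 DMSO bars.

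The remaining cytosolic genes that rose did so by less. EPRS, which joins both glutamate and proline to their tRNAs, was at 424, 423 and 341 CPM in DMSO and at 531, 554 and 539 CPM in CAPE. All CAPE libraries were above all DMSO libraries, and DMSO 3 was the lowest. EPRS rose by 0.35 without DMSO 3 (SE 0.04, edgeR adjusted p = 3.88e-06) and gave 0.45 with 6 libraries (adjusted p = 0.255). YARS, the tyrosyl-tRNA synthetase, was at 271, 263 and 637 CPM in DMSO and at 336, 337 and 330 CPM in CAPE. It rose by 0.32 without DMSO 3, but its fitted value was -0.22 with that library, which held the highest YARS level of all. TARS, the threonyl-tRNA synthetase, was at 1017, 1057 and 1107 CPM and then at 1212, 1218 and 1231 CPM, with no overlap, and rose by 0.23 without DMSO 3 (0.20 with all 6 libraries, not passing). IARS, the isoleucyl-tRNA synthetase, was at 509, 492 and 547 CPM and then at 550, 547 and 544 CPM, so the groups overlapped at DMSO 3. IARS rose by 0.12 and NARS, the asparaginyl-tRNA synthetase, by 0.19 without DMSO 3, the smallest rises that passed in the cytosolic set, and their values with all 6 libraries were 0.08 and 0.38.

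VARS, the valyl-tRNA synthetase that binds elongation factor 1, was the member of the stress-response list that fell. It was at 228, 217 and 527 CPM in DMSO and at 183, 170 and 166 CPM in CAPE. Every CAPE library was below every DMSO library. Without DMSO 3 VARS fell by 0.37 in log2 units (SE 0.05, edgeR adjusted p = 3.14e-05), and the fitted value with all libraries was -0.91 (SE 0.37, adjusted p = 0.310). LARS, the leucyl-tRNA synthetase and a leucine sensor for the kinase mTORC1, was not called in either fit (log2 fold change -0.06 and -0.02).

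Among the genes not on the stress-response list RARS, the arginyl-tRNA synthetase, fell most without DMSO 3. RARS was at 157, 158 and 181 CPM in DMSO and at 114, 119 and 118 CPM in CAPE, with no overlap. In TPM DMSO 3 held 67.9 and was below every CAPE library (104 to 113 TPM). Its fall was 0.43 without DMSO 3 (SE 0.05, edgeR adjusted p = 2.59e-06), and the 6-library value was -0.50 (SE 0.14, adjusted p = 0.170). FARSA and FARSB are the catalytic and the second subunit of the cytosolic phenylalanyl-tRNA synthetase. FARSA was at 167, 164 and 490 CPM in DMSO and at 149, 138 and 144 CPM in CAPE. FARSB was at 113, 120 and 193 CPM and then at 100.4, 100.0 and 98.8 CPM. In CPM, CAPE was below DMSO in every library for both subunits, and in TPM for FARSA only. Without DMSO 3 FARSA fell by 0.21 and FARSB by 0.23 (edgeR adjusted p = 0.00258 and 0.00177), and their values with it were -0.93 and -0.51. KARS fell by 0.21, DARS by 0.16 and QARS by 0.15 without DMSO 3, beside 6-library values of -0.79, -0.07 and -0.65 that did not pass. HARS, the lowest cytosolic member, was at 22.1, 20.0 and 27.2 CPM in DMSO and at 20.5, 25.4 and 23.2 CPM in CAPE. The groups overlapped fully (log2 fold change 0.12 without DMSO 3 and -0.006 with it).

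Membership of the multi-tRNA synthetase complex, a cytosolic particle of several synthetases held by scaffold proteins, did not sort the changes the same way. Of its 8 synthetases 3 rose without DMSO 3 (EPRS, IARS and MARS), 4 fell (DARS, KARS, QARS and RARS), and LARS was not called. Of the 12 others 8 rose and 3 fell. In that fit 20.4% of all tested genes were higher and 20.8% lower. The scaffold proteins AIMP2 and EEF1E1 fell and AIMP1 was not called. AIMP2 was at 53.2, 50.6 and 141 CPM in DMSO and at 33.2, 33.0 and 33.3 CPM in CAPE, a fall of 0.65 without DMSO 3 (SE 0.06, edgeR adjusted p = 1.25e-06). EEF1E1 fell by 0.44 in that fit. The structural classes of synthetases, which differ in the fold of the catalytic domain, held 5 rises and 3 falls among 9 cytosolic members of class I and 5 rises and 4 falls among 10 of class II. EPRS carries one catalytic domain of each class.

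Falls outnumbered rises in the mitochondrial set. Without DMSO 3 the 7 members that fell were MARS2, YARS2, WARS2, FARS2, EARS2, NARS2 and TARS2, and IARS2 rose. The median log2 fold change was -0.30 without DMSO 3 and -0.63 with it, against 0.16 and 0.01 for the cytosolic set. The value was below 0 for 14 of 16 mitochondrial members in both fits. Over all tested genes it was below 0 for 6911 of 13919 without DMSO 3 and for 6906 of 13595 with it. Without DMSO 3, 20.8% of all tested genes were called lower and 20.4% higher.

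MARS2, the mitochondrial methionyl-tRNA synthetase (chromosome 2, 197705369 to 197708395), had the largest fall that passed. It was at 28.4, 25.6 and 26.5 CPM in DMSO and at 17.2, 17.5 and 16.0 CPM in CAPE. In CPM the DMSO libraries were close together, DMSO 3 among them, and all lay above CAPE. In TPM MARS2 was at 14.7, 13.3 and 6.64 in DMSO and at 8.90, 9.01 and 8.25 in CAPE, so that DMSO 3 lay below every CAPE library. MARS2 fell by 0.68 without DMSO 3 (SE 0.09, edgeR adjusted p = 2.06e-05), and its log2 fold change was -0.67 with 6 libraries (SE 0.14, adjusted p = 0.0896), the smallest adjusted p of any member in that fit. YARS2 was at 30.7, 28.7 and 72.1 CPM in DMSO and at 22.4, 21.4 and 17.7 CPM in CAPE. It fell by 0.54 without DMSO 3 (SE 0.10, edgeR adjusted p = 3.89e-04) and gave -1.10 with 6 libraries. YARS2 was the 1 mitochondrial gene whose promoter window held the response element letters, and DMSO 3 was far above its other libraries.

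WARS2 was at 32.0, 30.2 and 39.8 CPM in DMSO and at 23.1, 21.6 and 22.7 CPM in CAPE. FARS2, a single-chain enzyme unlike its cytosolic counterpart, was at 11.1, 11.4 and 28.6 CPM and then at 8.24, 7.98 and 8.64 CPM. EARS2 was at 69.5, 70.5 and 127 CPM and then at 55.0, 53.4 and 50.7 CPM. In the CPM of all 3, every CAPE library was below every DMSO library, and DMSO 3 was the highest. In TPM this held for FARS2 and EARS2, but WARS2 was at 21.0, 18.7 and 11.9 TPM in DMSO and at 14.0, 13.3 and 14.1 TPM in CAPE, with DMSO 3 the lowest of all. Their falls without DMSO 3 were 0.47 for WARS2, 0.44 for FARS2 and 0.40 for EARS2 (edgeR adjusted p = 1.68e-04, 0.00521 and 6.51e-05). With all 6 libraries the values were -0.60, -1.04 and -0.74. NARS2 fell by 0.33 and TARS2 by 0.30 without DMSO 3 and gave -0.44 and -0.66 with it.

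IARS2, the mitochondrial isoleucyl-tRNA synthetase, moved the other way. It was at 235, 239 and 197 CPM in DMSO and at 262, 270 and 272 CPM in CAPE, with no overlap, and rose by 0.17 without DMSO 3 (SE 0.04, edgeR adjusted p = 0.00319), with 0.26 in the 6-library fit. On chromosome 1 IARS2 and EPRS lie 47626 bases apart with 1 gene, BPNT1, between them, and both were higher in CAPE than in any DMSO library. PARS2 was the lowest mitochondrial member per length in every library but DMSO 3, where HARS2 was lower. PARS2 was at 8.54, 8.15 and 16.3 CPM in DMSO and at 6.61, 7.50 and 6.34 CPM in CAPE. CAPE was below DMSO throughout, but the change did not pass (-0.30 without DMSO 3, edgeR adjusted p = 0.0808, and -0.69 with it). LARS2 varied widely between replicates, from 12.0 to 42.8 CPM in DMSO and from 8.03 to 27.4 CPM in CAPE, and its log2 fold change of -0.69 without DMSO 3 had an SE of 0.42 (-0.67 with 6 libraries). AARS2, CARS2, HARS2, RARS2, SARS2 and VARS2 were not called, with values from -0.22 to 0.15 without DMSO 3 and from -0.84 to 0.58 with it.

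HARS and HARS2 start head to head on chromosome 5, with 84 bases between their annotated start sites (59.5% G and C), and neither was called in either fit. The bases between the starts, chr5:140691371-140691454 on the plus strand, are given because both genes share them as promoter; they hold neither motif.
HARS and HARS2: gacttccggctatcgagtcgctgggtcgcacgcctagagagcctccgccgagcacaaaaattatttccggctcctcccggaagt

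HARS2 was at 5.96, 4.59 and 1.16 CPM in DMSO and at 6.29, 5.85 and 5.52 CPM in CAPE. In CPM, DMSO 3 held the lowest level of HARS2 and the highest of HARS. In TPM it held the lowest level of both genes, 0.681 TPM for HARS2 and 14.1 TPM for HARS.

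Groups that did not overlap in CPM over all 6 libraries were counted as a second view that uses no test. Every CAPE library was above every DMSO library for 5 cytosolic members (CARS, EPRS, GARS, NARS and TARS) and 1 mitochondrial member (IARS2), with 21.4% of all tested genes doing the same. Every CAPE library was below every DMSO library for 6 cytosolic members (FARSA, FARSB, KARS, QARS, RARS and VARS) and for 12 of 16 mitochondrial ones, with 20.6% of all tested genes. In TPM, where the median log2 fold change of all tested genes was 0.31 rather than -0.01, the counts were 11 cytosolic and 2 mitochondrial members higher (IARS2 and VARS2), with 25.8% of tested genes, and 4 cytosolic and 4 mitochondrial members lower, with 8.17% of tested genes. The 11 cytosolic ones were the same genes, 11 of 11, that were called higher without DMSO 3. This match is not separate support, because both views share DMSO 1, DMSO 2 and the CAPE libraries. In all of these genes except SARS, DMSO 3 held the lowest TPM of the 6 libraries, so it could not make the groups overlap.

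In TPM, which allow genes to be compared per length, TARS was the most abundant member in DMSO 1 and DMSO 2 (805 and 846 TPM), followed by KARS, QARS, GARS and NARS at means of 300.3, 252, 229.2 and 229.2 TPM. GARS and NARS did not differ beyond their spread. HARS was lowest of the cytosolic set at 26.0 TPM and CARS next to lowest at 51.7 TPM. In CAPE, TARS stayed highest (1018, 1028 and 980 TPM), GARS ranked second at a mean of 647 TPM, YARS the third at 284 TPM, and KARS the sixth at 258 TPM. NARS, SARS, KARS and MARS had means of 257 to 260.1 TPM and did not differ beyond their spread. Among mitochondrial members IARS2 (104 TPM in DMSO 1 and DMSO 2) and CARS2 (97.5 TPM) were highest, and PARS2 lowest at 5.77 TPM in the same libraries. MARS2 went from rank 11 of 16 to rank 14.

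Summed over each set, the cytosolic synthetases held 3821, 3788 and 2687 TPM in DMSO 1 to 3 and 4869, 4937 and 4913 TPM in CAPE. The mitochondrial ones held 535, 507 and 385 TPM in DMSO and 469, 475 and 459 TPM in CAPE. The cytosolic sum was thus 7.14, 7.47 and 6.98 times the mitochondrial sum in DMSO and 10.4, 10.4 and 10.7 times in CAPE. This ratio, taken within each library, was lower in all 3 DMSO libraries than in any CAPE library, and DMSO 3 was close to the other DMSO libraries in it. Its mean was 7.20 ± 0.246 in DMSO and 10.5 ± 0.181 in CAPE (SD, n = 3), a factor of 1.46, and 1.44 without DMSO 3. Without TARS, the most abundant member, the factor was 1.45. GARS, which also supplies the mitochondrial enzyme, stayed in the sum, and the factor without it was not computed. GARS went from a mean of 229 TPM in DMSO 1 and DMSO 2 to 647 TPM in CAPE. The cytosolic sum went from 3804 to 4906 TPM in the same libraries, so a large part of its rise was GARS. In CPM the cytosolic sum was 5195, 5170 and 7955 in DMSO 1 to 3 and 6325, 6326 and 6354 in CAPE 1 to 3. On that scale DMSO 3 exceeded every CAPE library. Within the cytosolic set, the 13 stress-reported genes held 2.86, 2.85 and 1.77 times the TPM of the other 7 in DMSO and 4.56, 4.71 and 4.58 times in CAPE. Their list was drawn up with earlier results of these data known, so this ratio is a description.

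**Figure D4:**
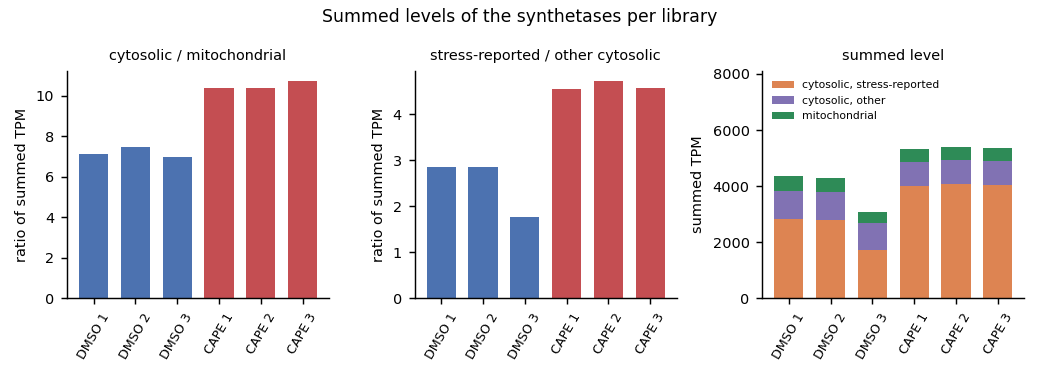
Summed TPM per library: the ratio of cytosolic to mitochondrial synthetases (left), the ratio of the 13 stress-reported cytosolic genes to the other 7 (middle), and the sums themselves, stacked (right). Bars are single libraries, blue for DMSO and red for CAPE in the first and second panels; the cytosolic to mitochondrial ratio lies between 6.98 and 7.47 in DMSO and between 10.4 and 10.7 in CAPE.

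Set side by side for the same amino acid, 17 pairs of a cytosolic and a mitochondrial gene could be formed, with EPRS paired to both EARS2 and PARS2 and FARS2 to both FARSA and FARSB. The difference between the log2 fold changes of the partners favoured the cytosolic gene in 13 of 17 pairs in either fit. For methionine, MARS held 10.6, 10.3 and 15.1 times the TPM of MARS2 in DMSO and 28.9, 28.2 and 31.5 times in CAPE. For tryptophan, WARS over WARS2 went from 6.66, 6.17 and 8.74 to 16.7, 15.9 and 15.5. In both pairs the cytosolic gene rose and the mitochondrial gene fell without DMSO 3. For cysteine the order of the partners turned: CARS held 0.536, 0.524 and 0.488 times the TPM of CARS2 in DMSO and 1.27, 1.20 and 1.42 times in CAPE. CARS was the 1 cytosolic gene of the 17 pairs below its partner, and it was so in DMSO only. The pairs for valine, arginine, isoleucine and histidine went the other way or hardly moved, and VARS over VARS2 went from 9.20, 9.12 and 15.9 to 7.13, 5.13 and 6.39.

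**Figure D5:**
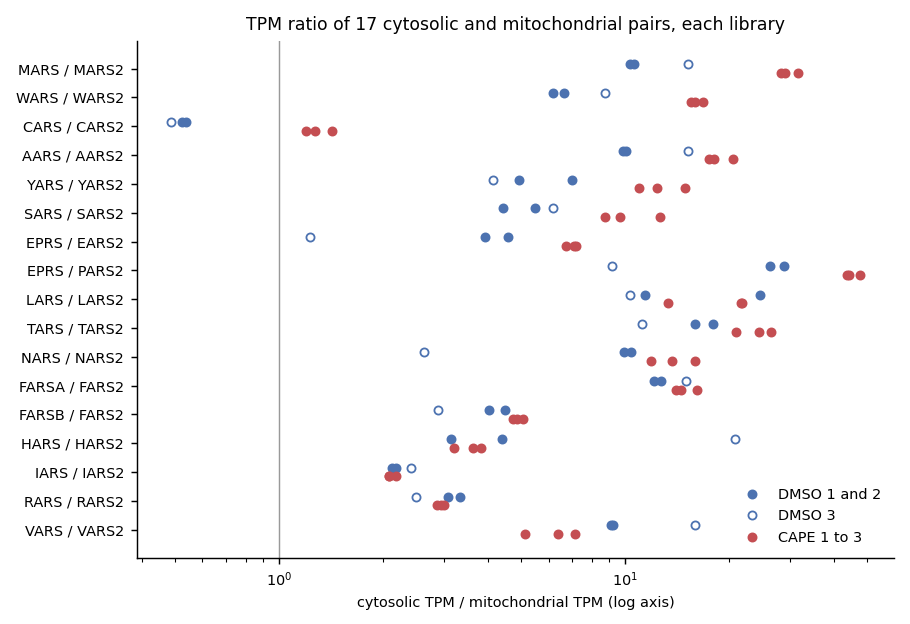
Ratio of cytosolic to mitochondrial TPM (horizontal axis, log scale) for 17 pairs that charge the same amino acid, ordered by the shift without DMSO 3. Each point is 1 library, filled blue for DMSO 1 and DMSO 2, open blue for DMSO 3 and red for CAPE; the MARS and MARS2 pair shifts most, and the CARS and CARS2 pair crosses the line at 1.

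The promoter letters can be read against these calls. Of the 10 cytosolic members that rose without DMSO 3 and had a window, 7 held TGATGNAA on either strand (70.0%): AARS, CARS, GARS, IARS, MARS, NARS and TARS, the genes whose stretches are printed above. EPRS, SARS and WARS rose without it in this window. None of the 5 cytosolic members that fell and had a window held it. Among mitochondrial members that fell it was in 1 of 7 (14.3%), YARS2. Of all 27305 genes with a window 4.46% held the letters. The share among all genes called higher or lower was not computed. The size of the rise did not follow the match, since GARS and CARS at 1.18 and 1.15 and IARS and TARS at 0.12 and 0.23 all had one. Of 11 other ATF4 targets with a window, 4 held the letters (36.4%).

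Genes around the synthetases were taken from 8 lists totalling 152 genes. Of 12 established ATF4 targets other than synthetases, 5 rose with all 6 libraries (DDIT3, ATF3, PHGDH, CHAC1 and SESN2) and 12 without DMSO 3, with medians of 1.45 and 1.64. Of all tested genes 1.49% and 20.4% were called higher in these fits, with medians of -0.01 and 0.003. DDIT3, the stress transcription factor CHOP, was at 4.53, 4.33 and 5.68 CPM in DMSO and at 20.3, 23.8 and 22.5 CPM in CAPE. It rose by 2.20 with 6 libraries (SE 0.18, edgeR adjusted p = 0.0106), without any overlap. ATF3 rose by 2.76 and PHGDH, which starts serine synthesis, by 1.89 in that fit. Without DMSO 3 these 12 targets ranged from 0.15 to 3.23 and the 13 stress-reported synthetases from -0.37 to 1.18, and the difference between the lists was not tested.

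No gene of the other 7 lists (140 genes tested) passed edgeR's test with 6 libraries, where 23 had an unadjusted p under 0.05, a share close to the 16.1% of all tested genes. DESeq2 called 4 of them (PPP1R15A higher, EEF1E1, MRPL35 and POP1 lower) and limma on TPM 1 (PPP1R15A). The counts that follow are therefore without DMSO 3, where 20.4% of all tested genes were higher and 20.8% lower. Of 10 genes that sense or reverse eIF2 phosphorylation or respond to it directly, 3 rose and 5 fell. PPP1R15A, which directs the phosphatase to eIF2, was at 28.4, 26.8 and 51.3 CPM in DMSO and at 80.1, 81.0 and 78.7 CPM in CAPE and rose by 1.53. EIF2AK3, the eIF2 kinase PERK, rose by 0.67, and EIF2AK4, the kinase GCN2 that senses uncharged tRNA, fell by 0.43. ATF4 itself, singled out here after its values were seen, was at 359, 367 and 878 CPM in DMSO and at 531, 513 and 526 CPM in CAPE. ATF4 rose by 0.52 without DMSO 3 and gave -0.03 with it, with DMSO 3 above every CAPE library, as in AARS, WARS, MARS and SARS.

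Other charging factors had 1 rise and 5 falls among 11. GATC, a subunit of the amidotransferase that makes glutaminyl-tRNA in mitochondria, fell by 0.39, DTD2, which removes wrongly charged amino acids, by 0.58, and MTFMT, which formylates the mitochondrial initiator tRNA, by 0.25. Of 24 genes of tRNA processing, modification and export 1 rose, the tRNA exporter XPOT, and 13 fell. POP1, a protein of ribonuclease P, was at 49.7, 46.9 and 63.6 CPM in DMSO and at 31.2, 34.1 and 32.7 CPM in CAPE and fell by 0.57. ELAC2, which trims tRNA 3′ ends, fell by 0.42 and NSUN2, a tRNA methyltransferase, by 0.31.

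Falls also outnumbered rises among other genes of mitochondrial translation. Of 78 mitochondrial ribosomal protein genes 1 rose and 43 fell without DMSO 3, with a median of -0.21 (-0.80 with all 6 libraries), and among 9 mitochondrial translation factors 0 rose and 4 fell. TSFM, the mitochondrial elongation factor Ts, fell by 0.44, TUFM, the elongation factor Tu, by 0.15 and GFM1, an elongation factor G, by 0.31. MRPL35 was at 64.6, 64.3 and 66.3 CPM in DMSO and at 47.9, 49.1 and 49.1 CPM in CAPE and fell by 0.41. In DMSO 3 the ribosomal protein genes had a median departure of 1.30 from DMSO 1 and DMSO 2, more than the 0.44 of the mitochondrial synthetases, and how far length took part in this was not tested. Of 5 cytosolic elongation factor genes 0 rose and 2 fell, EEF1B2 and EEF1D, each by 0.12.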

How the data were processed

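Per the labels, total RNA was extracted with Trizol and sequenced on an Illumina platform. Per the submitters' processing notes, reads were handled with bcl2fastq and kallisto 0.46.1 against GRCh38. The authors deposited estimated counts per gene symbol, as whole numbers (rounded, since in each library 32 to 65 genes with a count of 0 have a positive TPM), and TPM, from which levels per length were taken. How transcripts were summed to genes is not given in the sources used here. The miRNA table was not analysed here.

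Counts were filtered with filterByExpr, scaled with TMM and compared with edgeR 4.0.16 (R 4.3.3) by the quasi-likelihood test, group as the only term, with Benjamini-Hochberg adjustment over all genes tested and a threshold of 0.05. All 36 members passed the filter with 6 and with 5 libraries. CPM are relative to TMM-scaled library sizes (factor 0.699 in DMSO 3, 1.07 to 1.09 elsewhere), a prior count of 2 went into log2 CPM, and SE is the log2 fold change over the square root of F. The test was checked on simulated counts in which no library departed as DMSO 3 does, so the check does not cover that departure. DESeq2 1.42.0, limma 3.58.1 on log2(TPM + 1), voom with library quality weights, removal of a length trend, other size factors, no filter, a replicate block and leaving out each library were alternatives.

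Members and lists were chosen with earlier results of these data known. Values in every library are given for the 8 cytosolic and 5 mitochondrial members with the largest changes among those called without DMSO 3, the most and least abundant member of each set, and the cytosolic partners of these. From each other list at most 3 genes with the smallest p were named, with exceptions stated. Promoter windows and positions are RefSeq's. Some items are not reported here.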

Additional observations from a re-analysis of the deposited data

How the results depend on the processing

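The calls rest on whether DMSO 3 is kept. With edgeR, 0 members were called with all 6 libraries, in the fit with a replicate block, with DESeq2 size factors, with no filter on low counts, and when any library other than DMSO 3 was left out. Over the fits that leave out 1 library, the calls ran from 0 to 11 higher and 0 to 7 lower for cytosolic members and from 0 to 1 higher and 0 to 7 lower for mitochondrial ones, and from 0 to 2836 higher and 0 to 2895 lower for all genes, the upper ends all without DMSO 3. The block gave 0 and 0 for all genes. Whether same-numbered libraries were paired could not be settled. Deviations of same-numbered libraries from their group means correlated at -0.19, 0.14 and -0.009 across genes. DMSO 3 weighs on the DMSO mean, so these values cannot show or exclude pairing. With CAPE 2, DMSO 1 and DMSO 2 correlated at 0.21 and 0.14, and DMSO 3 at -0.19. With the block and without DMSO 3, 11 cytosolic members were higher and 7 lower, 1 mitochondrial member was higher and 8 lower, and all genes gave 2469 and 2556. With library quality weights, which gave DMSO 3 a weight of 0.02, these counts were 11 and 6, 1 and 7, and 2915 and 2677. DESeq2 gave 1 and 1, 0 and 2, and 535 and 335. Removing a length trend gave 1 cytosolic member higher, 1 mitochondrial member lower and 280 of all genes higher and 128 lower, and limma on TPM 3 cytosolic members higher and 112 and 23 of all genes.

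The cytosolic median of 0.01 has no settled sign: it ran from -0.0283 to 0.16 over the fits that leave out 1 library and was -0.0407 with DESeq2, -0.0186 with DESeq2 size factors, -0.0176 without the filter and 0.52 on TPM, where the median of all tested genes was 0.31. The mitochondrial median was below 0 throughout, from -0.69 to -0.30 over the fits that leave out 1 library (-0.30 without DMSO 3), at -0.26 with the block as well, -0.30 with quality weights and -0.0882 on TPM. SARS, at 0.03, ran from -0.21 (without DMSO 1; also -0.21 without DMSO 2) to 0.63 (without DMSO 3) and was -0.0268 with DESeq2, -0.00154 with its size factors and -0.00298 without the filter. HARS, at -0.006, ran from -0.11 (without DMSO 2) to 0.12 (without DMSO 3), with 0.07 without CAPE 1, and was 0.11 with the block and without DMSO 3, 0.13 with quality weights, 0.16 with the length trend removed and 0.44 on TPM. YARS, at -0.22, ran from -0.45 (without DMSO 2) to 0.32 (without DMSO 3) and was 0.33 with the block as well, 0.32 with quality weights and 0.51 on TPM. RARS was at 0.00793 on TPM and IARS at -0.13 with the length trend removed. The summed cytosolic to mitochondrial ratio rose by a factor of 1.29 on CPM. On TPM, the groups did not overlap in 11 cytosolic and 2 mitochondrial members that were higher, with 25.8% of tested genes. The same held for 4 cytosolic and 4 mitochondrial members that were lower, with 8.17% of tested genes. This alternative was chosen after seeing the data, as were leaving out TARS and DMSO 3 from the ratio. Depth limits HARS2 most, with 17 counts in DMSO 3.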
